A study of Danio rerio with 5 samples.

Results

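Transcripts of the machinery that divides chromosomes were examined in whole zebrafish larvae homozygous for a deletion in zbtb24. The genes were taken by symbol alone and comprise the centromere proteins named cenp, the NDC80 complex, the spindle assembly checkpoint, mitotic kinases and cyclins, spindle motors, and condensin with topoisomerase. The rule found 56 of the 21854 genes in the table. In humans, mutations of the zinc finger protein ZBTB24 cause ICF syndrome (immunodeficiency, centromeric instability, facial anomalies), in which DNA methylation is lost at the repeats beside centromeres. The larvae were 2 weeks old, and poly(A) RNA was sequenced from pools of 10 animals per library. There were 3 libraries labelled Mutant, from larvae homozygous for the zbtb24 mk22 allele, and 2 labelled WT, from wild-type larvae. The mk22 allele is a germline deletion made with TAL effector nucleases, so every tissue carries it, and the labels name no other allele or treatment for either group.

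Chromosomes attach to the spindle through the kinetochore, a protein assembly built on centromeric chromatin that contains the histone variant CENP-A. Inner kinetochore proteins bind that chromatin, the outer kinetochore grips microtubules, and the spindle assembly checkpoint holds back anaphase until each chromosome is attached. Most of these genes are transcribed mainly in cells that approach or pass through division, so in a whole animal their transcripts are known as markers of proliferating cells. In RNA from whole larvae, a different number of dividing cells and a different amount of a transcript per dividing cell cannot be told apart.

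Values are scaled counts, the reads of a gene after division by its library's size factor, and they compare libraries but not genes of different length. They are given in the order of Mutant replicates 1, 2 and 3 and then of WT columns 2 and 3, because the WT columns carry numbers that could not be tied to single samples. Libraries held from 24504651 to 26711419 reads in genes when labelled Mutant, and 28601962 and 23796792 when labelled WT. The 56 genes had between 40 and 5280 reads in any library, so each was well above the minimum mean scaled count of 10 and all were tested. The targeted gene was not lower in the libraries labelled Mutant. Zbtb24 itself (ENSDARG00000075533) had scaled counts of 155, 175 and 282 in the libraries labelled Mutant, against 127 and 77.3 in those labelled WT (log2 fold change 0.98, SE 0.28, adjusted p = 0.0642 in limma). These are counts over the whole gene, and whether the reads lay inside or outside the deleted part was not tested. They cannot by themselves check the labels, so all directions are given for libraries as labelled. Cdca7a, of a gene family whose transcription is known to depend on ZBTB24 in mammals, lay the other way, with 255, 199 and 40.4 in Mutant, against 300 and 563 in WT. The groups did not overlap for this gene, which was chosen after its values were seen, but it did not pass the test (log2 fold change -1.68, SE 0.63, adjusted p = 0.127) and was far lower in Mutant replicate 3 than in the others. The labels also name the source as fin, whereas the description of the series gives whole larvae, and transcripts of lens, photoreceptors, liver, pancreas and muscle were abundant in every library.

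The mitotic genes were higher in the libraries labelled Mutant as a body. Of the 56 genes, 37 passed the test as higher (adjusted p under 0.05 in limma, adjusted over all 20307 genes tested), where 3.32% of all tested genes did. No member passed as lower, where 2.68% of all tested genes did, and no member was lower at an unadjusted p under 0.05. An unadjusted p under 0.05 in limma was reached by 53 members, where 13.1% of all tested genes did so as higher. The log2 fold change was positive for all 56 and ranged from 0.07 to 1.13 with a median of 0.73, whereas the median over all tested genes was -0.00. As linear ratios of the means, the members ran from 1.05 to 2.14 with a median of 1.63, so the shift was broad and moderate in size. A log2 fold change of at least 0.5 was seen for 52 members and for 7.40% of all tested genes. For 53 members the 3 libraries labelled Mutant all exceeded the pair labelled WT (94.6%), against 22.3% of all tested genes. The exceptions were bub3, cenph and cenpv. At a change of at least 2-fold, 4 members passed as higher, namely spc24, birc5a, cdk1 and ncaph2. Of all 20307 tested genes, 143 did so. WT column 2 was the lowest library for 55 of the 56 members, so these counts are not of independent genes.

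**Figure D1:**
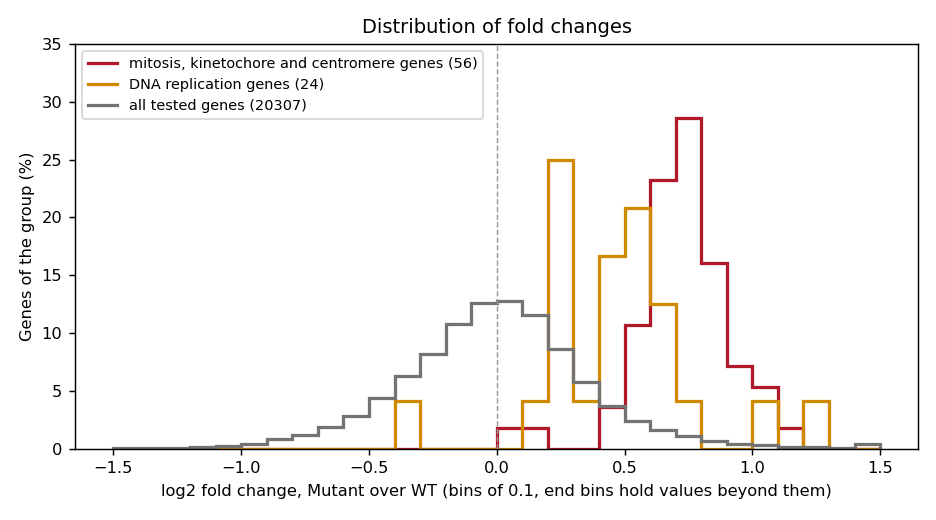
Share of genes (%) by log2 fold change, Mutant over WT, in bins of 0.1, for the 56 mitosis, kinetochore and centromere genes, 24 DNA replication genes and all 20307 tested genes. All 56 members lie right of 0 with a median of 0.73, while all tested genes centre on -0.00.

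The summed scaled count of the members was 45897, 48382 and 42710 in the libraries labelled Mutant, against 22401 and 33497 in those labelled WT. The mean was 45663 ± 2843 (SD, n = 3) for Mutant and 27949 ± 7846 (SD, n = 2) for WT, a ratio of 1.63. The pair labelled WT stood further apart than the libraries labelled Mutant. WT column 3 had 1.5 times the sum of WT column 2, and the libraries labelled Mutant averaged 1.36 times the sum of WT column 3. WT column 2 was the lowest library for 55 of the 56 members, as it was for 30.1% of all tested genes. The median log2 difference between WT columns 3 and 2 was 0.53, larger than the median difference of 0.44 between the mean of the Mutant libraries and WT column 3. For 46 members, WT column 3 minus WT column 2 was larger than the lowest Mutant library minus the higher WT library, in log2. The same count over all tested genes was not made. Within the Mutant libraries the median log2 range was 0.22. Mutant replicate 2 was the highest library for 40 members, Mutant replicate 1 for 13 and Mutant replicate 3 for 2. Of all 20307 tested genes, Mutant replicate 2 was highest for 4972, Mutant replicate 1 for 3204 and Mutant replicate 3 for 2954.

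**Figure D2:**
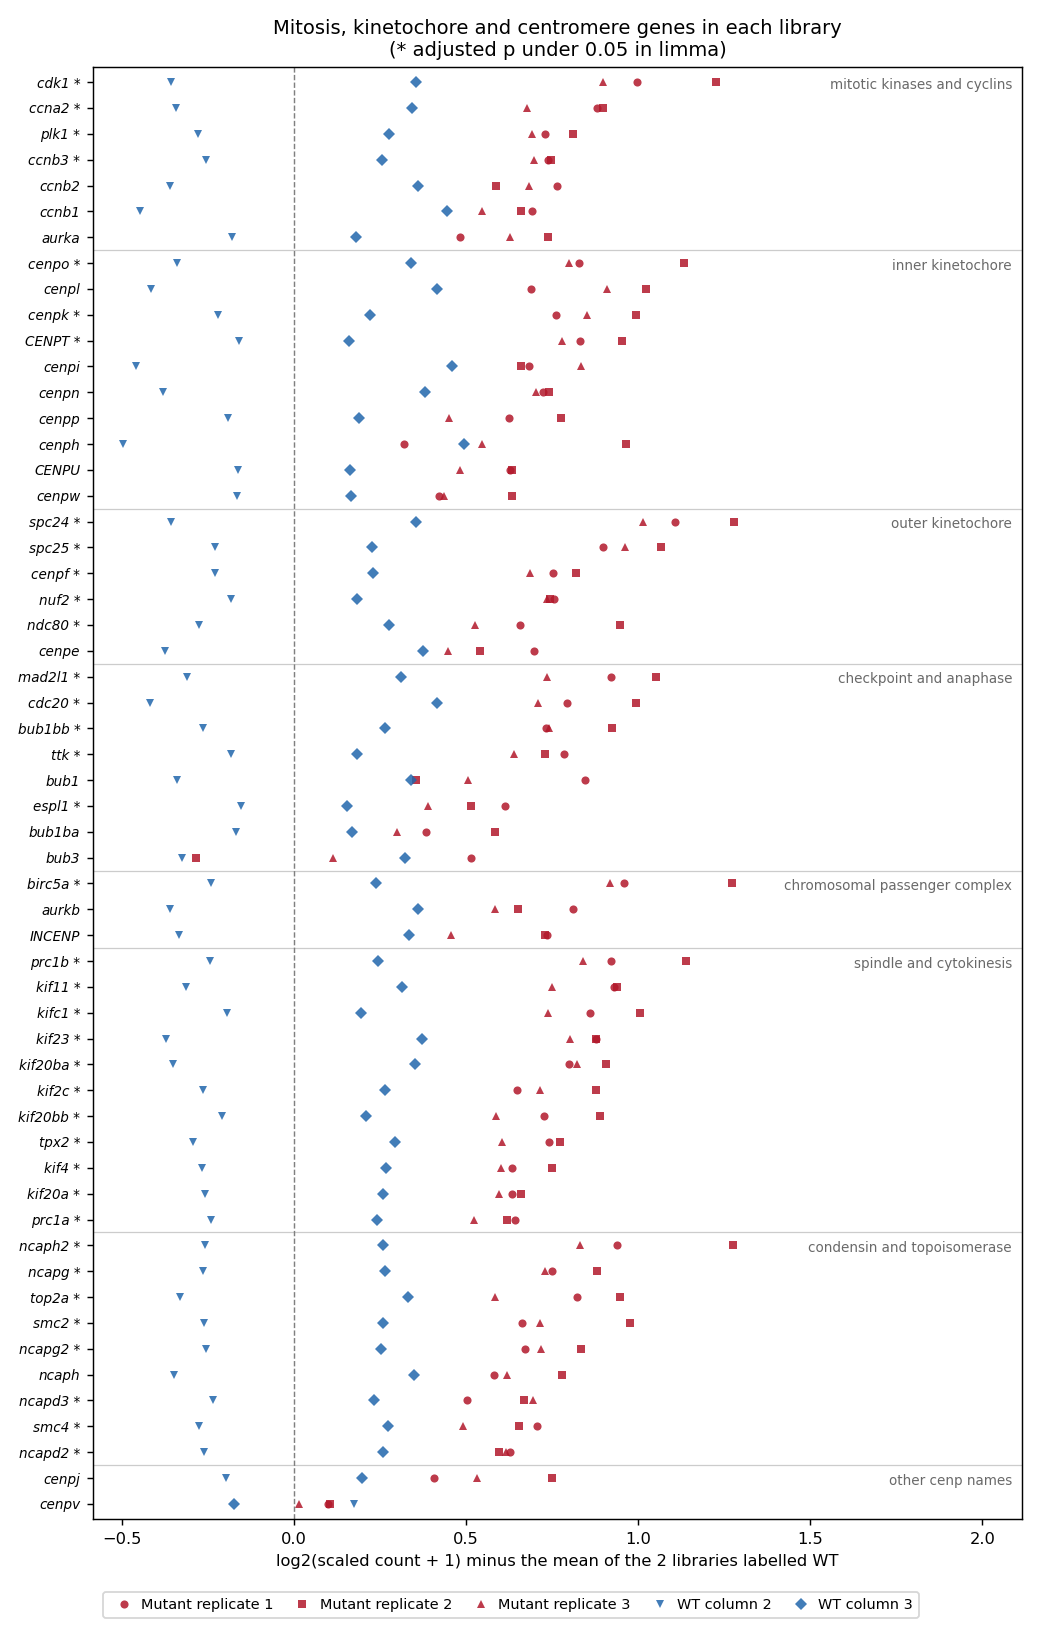
Log2(scaled count + 1) of each of the 56 genes in each library, minus the mean of the 2 libraries labelled WT, with genes grouped by role. Red symbols are the 3 libraries labelled Mutant, blue symbols the 2 labelled WT, and an asterisk marks the 37 genes that passed the test. WT column 2 is leftmost for 55 genes, and all 3 Mutant libraries lie right of WT column 3 for 54.

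The calls depended on single libraries. Without WT column 2, limma called 0 of the 56 members, 41 reached an unadjusted p under 0.05 (7.13% of all genes did so as higher), and the median log2 fold change was 0.44. Without WT column 3 the median was 1.01. Leaving out Mutant replicate 2 also ended every call, with 51 members at an unadjusted p under 0.05 (8.90% of all genes as higher) and a median of 0.70. Without Mutant replicate 1, 13 members were called (1.18% of all tested genes as higher). Without Mutant replicate 3 the count was 33 (3.26% of all tested genes as higher). Calls over all genes fell in these fits too, to 31 higher without WT column 2 and 48 without Mutant replicate 2, against 674 higher with all libraries. The median fold of the members moved with the WT pair, whereas it stayed between 0.70 and 0.75 when any library labelled Mutant was left out. Leaving out Mutant replicate 2 thus ended the calls with little change in the size of the difference.

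**Figure D3:**
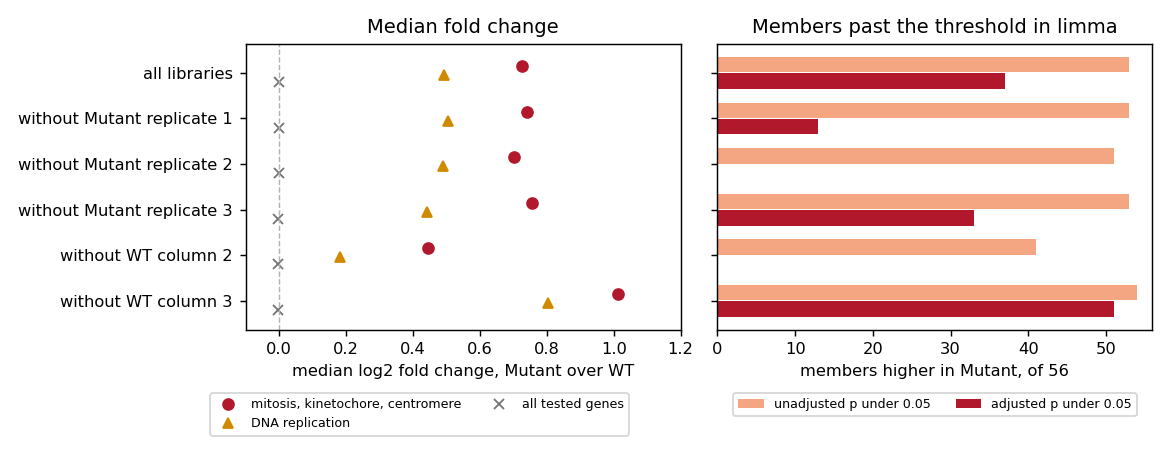
Median log2 fold change, Mutant over WT (left), and number of the 56 members higher in Mutant at an unadjusted or adjusted p under 0.05 in limma (right), with all libraries and with each left out. The median of the members stays above that of DNA replication genes and of all tested genes, and falls to 0.44 without WT column 2, where no member is called.

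Beside the counts by role below, 3.32% of all tested genes passed as higher. For 22.3% of them every Mutant library exceeded both WT libraries. Among mitotic kinases and cyclins, which trigger entry into division, 4 of 7 genes passed the test and the median log2 fold change was 0.73. Cdk1 (ENSDARG00000087554), the kinase that drives entry into mitosis, had scaled counts of 1383, 1623 and 1292 in the libraries labelled Mutant, against 541 and 887 in those labelled WT. Its means were 1433 ± 171 (SD, n = 3) for Mutant and 714 ± 244 (SD, n = 2) for WT, a difference of 1.04 on the log2 scale (SE 0.19, adjusted p = 0.0217). Its lowest Mutant library was well above its higher WT library, and no other gene of the group reached a 2-fold change. Ccna2, a cyclin that acts in DNA synthesis and early mitosis, had 981, 991 and 851 in Mutant, against 419 and 674 in WT (log2 fold change 0.82, adjusted p = 0.0335). Plk1, the polo-like kinase needed for spindle formation and centrosome maturation, had 1341, 1421 and 1306 in Mutant, against 667 and 980 in WT (log2 fold change 0.74, adjusted p = 0.0280). Ccnb3, a B-type cyclin, had 331, 334 and 322 in Mutant, against 166 and 237 in WT (log2 fold change 0.73, adjusted p = 0.0346). For these 3 genes the Mutant libraries lay close together and the WT pair was split.

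The classical mitotic cyclin ccnb1 did not pass. Its scaled counts were 906, 887 and 820 in Mutant, against 412 and 764 in WT (log2 fold change 0.63, SE 0.21, adjusted p = 0.0958). The groups did not overlap, but the WT libraries differed by 0.89 on the log2 scale and the mean of Mutant lay only 0.19 above WT column 3. The related cyclin ccnb2, at 147, 130 and 139 in Mutant against 67.1 and 111 in WT, had an adjusted p of 0.0885. Aurka, a kinase of centrosomes and spindle poles, had 204, 243 and 225 in Mutant, against 128 and 165 in WT, and an adjusted p of 0.0536.

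The outer kinetochore held the largest change. Of 6 genes, 5 passed, with a median log2 fold change of 0.75. The NDC80 complex, which couples kinetochores to microtubules, has 4 subunits, and all 4 passed. Spc24 (ENSDARG00000093622) had scaled counts of 455, 512 and 426 in Mutant, against 164 and 270 in WT. With means of 465 ± 43.8 (SD, n = 3) for Mutant and 217 ± 74.6 (SD, n = 2) for WT, it had the largest fold of the 56 genes, 1.13 on the log2 scale (SE 0.19, adjusted p = 0.0209). Spc25 (ENSDARG00000078433), its partner in the complex, had 306, 343 and 319 in Mutant, against 139 and 192 in WT (log2 fold change 0.98, SE 0.16, adjusted p = 0.0178). On the log2 scale the mean of Mutant lay above WT column 3 by 0.78 for spc24 and by 0.75 for spc25, so both were well clear of the higher WT library. The microtubule-binding pair of the same complex changed less. Nuf2 had 592, 588 and 584 in Mutant, against 308 and 398 in WT (log2 fold change 0.75, adjusted p = 0.0209), and its Mutant libraries had the narrowest range of any member, 0.02 on the log2 scale. Ndc80 had 745, 912 and 681 in Mutant, against 390 and 572 in WT (log2 fold change 0.71, SE 0.18, adjusted p = 0.0456). Whether the subunits differed from each other was not tested.

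Cenpf, a large protein of the outer kinetochore, had 1773, 1858 and 1691 in Mutant, against 896 and 1233 in WT (log2 fold change 0.75, adjusted p = 0.0215). The motor gene cenpe, which moves chromosomes to the spindle equator, had 2049, 1840 and 1725 in Mutant, against 975 and 1639 in WT. It did not pass (log2 fold change 0.56, adjusted p = 0.0944), and Mutant replicate 3 lay close to WT column 3.

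The inner kinetochore passed less often, at 3 of 10 genes, although its median log2 fold change of 0.72 was close to that of the outer kinetochore, and the difference in calls was not tested. These proteins form the constitutive centromere-associated network, which sits on CENP-A chromatin through the cell cycle. The gene of CENP-A itself is not analysed here. CENPT, which links centromeric DNA to the NDC80 complex, had 313, 340 and 301 in Mutant, against 157 and 196 in WT (log2 fold change 0.85, SE 0.15, adjusted p = 0.0205). Cenpk, of the CENP-H, I and K group, had 207, 243 and 220 in Mutant, against 104 and 142 in WT (log2 fold change 0.87, adjusted p = 0.0273). Cenpo, of the CENP-O group that binds polo-like kinase, had 99.9, 124 and 98.0 in Mutant, against 43.9 and 70.9 in WT (log2 fold change 0.92, SE 0.23, adjusted p = 0.0486). CENPT had the smallest standard error of the 3 and cenpo, with the lowest scaled counts, the largest.

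The other 7 inner kinetochore genes had positive log2 fold changes from 0.50 to 0.87 that did not pass. Cenpl, whose product recognises CENP-A chromatin together with that of cenpn, had 147, 186 and 172 in Mutant, against 68.0 and 122 in WT (log2 fold change 0.87, SE 0.24, adjusted p = 0.0581). It shared its fold with cenpk, but its WT libraries differed by 0.83 on the log2 scale. For cenpn the log2 fold change was 0.72 (adjusted p = 0.0665) and for cenpi, of the same group as cenpk, it was 0.73 (adjusted p = 0.0829). Those of cenpp and CENPU, of the CENP-O group, were 0.62 and 0.58 (adjusted p = 0.0633 and 0.0577), and that of cenpw, the histone-fold partner of CENPT, was 0.50 (adjusted p = 0.125). Only cenph overlapped between the groups, with 87.1, 137 and 102 in Mutant, against 49.1 and 98.4 in WT (log2 fold change 0.61, SE 0.29, adjusted p = 0.217). Mutant replicate 1 lay below WT column 3 for this gene, and its standard error was the largest of the 56. The histone-fold proteins CENP-S and CENP-X, which stand in the table as apitd1 and stra13 and so were not taken by the symbol rule, had log2 fold changes of 0.32 and 0.40 (adjusted p = 0.300 and 0.163).

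Checkpoint and anaphase genes were the most mixed group, with 5 of 8 passing and a median log2 fold change of 0.64. Mad2l1, which inhibits the anaphase-promoting complex while chromosomes are unattached, had 531, 581 and 467 in Mutant, against 226 and 347 in WT (log2 fold change 0.90, SE 0.18, adjusted p = 0.0280). Cdc20, the activator of that complex and the target of the checkpoint, had 495, 569 and 467 in Mutant, against 213 and 381 in WT (log2 fold change 0.83, adjusted p = 0.0493). Inhibitor and target were thus higher together. Bub1bb, of the BubR1 family of checkpoint proteins, had 293, 335 and 295 in Mutant, against 146 and 212 in WT (log2 fold change 0.80, adjusted p = 0.0321). Ttk, the kinase that starts checkpoint signalling, had 712, 685 and 643 in Mutant, against 363 and 469 in WT (log2 fold change 0.72, adjusted p = 0.0227). Espl1, or separase, which cuts cohesin at anaphase, had 901, 842 and 772 in Mutant, against 529 and 655 in WT (log2 fold change 0.51, SE 0.13, adjusted p = 0.0469). It was the smallest change that passed, and its standard error was also the smallest of the 56.

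The 3 checkpoint genes that did not pass spread widely. Bub1, a kinase that recruits checkpoint proteins to kinetochores, had 748, 532 and 590 in Mutant, against 328 and 526 in WT (log2 fold change 0.57, SE 0.20, adjusted p = 0.115). Mutant replicate 2, high for most members, was here barely above WT column 3. Bub1ba, whose symbol marks it as a paralogue of bub1bb, had a log2 fold change of 0.42 (adjusted p = 0.124). Bub3, the adaptor that brings Bub1 and BubR1 to kinetochores, had 459, 264 and 348 in Mutant, against 257 and 402 in WT. Its groups overlapped (log2 fold change 0.11, SE 0.24, adjusted p = 0.792), its Mutant libraries had the widest range of any member, 0.80 on the log2 scale, and the sign of its change turned to -0.21 without WT column 2 and to -0.09 without Mutant replicate 1.

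In the chromosomal passenger complex, which corrects faulty attachments and guides cytokinesis, 1 of 3 genes passed and the median log2 fold change was 0.68. Birc5a, or survivin, the subunit that targets the complex to centromeres, had 306, 380 and 297 in Mutant, against 133 and 185 in WT. The fold was 1.05 on the log2 scale (SE 0.18, adjusted p = 0.0205), and at 0.81 above WT column 3 on the log2 scale it had the largest difference from that library of all members. The catalytic subunit aurkb had 703, 629 and 600 in Mutant, against 312 and 513 in WT (log2 fold change 0.68, SE 0.19, adjusted p = 0.0605). INCENP, the scaffold, had 1279, 1273 and 1053 in Mutant, against 609 and 968 in WT (log2 fold change 0.64, adjusted p = 0.0638). The groups did not overlap for any of the 3 genes.

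Spindle motors and cytokinesis genes passed without exception, at 11 of 11 with a median log2 fold change of 0.75. Kifc1 (ENSDARG00000001558), a minus-end-directed motor that gathers spindle poles, had 1172, 1296 and 1077 in Mutant, against 564 and 739 in WT. Its means were 1181 ± 110 (SD, n = 3) for Mutant and 651 ± 124 (SD, n = 2) for WT, and its adjusted p of 0.0158 (log2 fold change 0.87, SE 0.14) was the smallest of the 56. The WT libraries differed by 0.39 on the log2 scale for this gene, less than the 0.67 between the mean of Mutant and WT column 3. Kif11, the motor that pushes spindle poles apart, had 1802, 1814 and 1593 in Mutant, against 761 and 1176 in WT (log2 fold change 0.87, adjusted p = 0.0234). Kif2c, a kinesin that dismantles microtubule ends at centromeres, had 662, 776 and 693 in Mutant, against 351 and 507 in WT (log2 fold change 0.75, adjusted p = 0.0313). Kif4, a chromosome-bound motor, had 1073, 1163 and 1049 in Mutant, against 574 and 832 in WT (log2 fold change 0.66, adjusted p = 0.0361). Motors with opposite actions on the spindle, such as kifc1 and kif11, thus had the same fold. Tpx2, which activates Aurora A and starts microtubules near chromosomes, had 1607, 1641 and 1463 in Mutant, against 783 and 1178 in WT (log2 fold change 0.71, adjusted p = 0.0344).

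Genes of the spindle midzone and cytokinesis showed a similar range. Prc1b, a bundler of antiparallel microtubules, had 411, 478 and 388 in Mutant, against 183 and 256 in WT (log2 fold change 0.97, SE 0.17, adjusted p = 0.0209). Its paralogue prc1a had 501, 493 and 462 in Mutant, against 271 and 379 in WT (log2 fold change 0.60, adjusted p = 0.0483). The difference between these copies was not tested. Kif23, the motor of the centralspindlin complex, had 1059, 1059 and 1005 in Mutant, against 445 and 745 in WT (log2 fold change 0.85, adjusted p = 0.0320). Kif20a, a midzone kinesin, had 750, 763 and 730 in Mutant, against 404 and 578 in WT (log2 fold change 0.63, adjusted p = 0.0400). The Mutant libraries were nearly equal for both motors. The kif20b copies were kif20ba, at 636, 686 and 647 in Mutant against 286 and 466 in WT (log2 fold change 0.84, adjusted p = 0.0320), and kif20bb, at 632, 708 and 574 in Mutant against 330 and 441 in WT (log2 fold change 0.74, adjusted p = 0.0286). How reads were shared between such paralogues is not given in the sources used here, so the split between the copies of bub1b, prc1 and kif20b is uncertain.

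Condensin and topoisomerase II, which compact and untangle chromosomes, passed as higher in 8 of 9 genes, and the groups did not overlap for any of the 9 (median log2 fold change 0.74). Top2a, topoisomerase II alpha, had 5212, 5683 and 4423 in Mutant, against 2341 and 3709 in WT (log2 fold change 0.79, SE 0.18, adjusted p = 0.0364). The ATPase subunits that both condensins share passed as well. Smc2 had 2149, 2671 and 2230 in Mutant, against 1134 and 1626 in WT (log2 fold change 0.78, adjusted p = 0.0273), and smc4 had 1945, 1876 and 1675 in Mutant, against 985 and 1442 in WT (log2 fold change 0.62, adjusted p = 0.0454). Condensin I, which reaches chromosomes after the nuclear envelope opens, had a median log2 fold change of 0.66 over its own subunits. Ncapg had 1599, 1752 and 1577 in Mutant, against 791 and 1142 in WT (log2 fold change 0.79, adjusted p = 0.0229). Ncapd2 had 1710, 1675 and 1698 in Mutant, against 925 and 1325 in WT (log2 fold change 0.61, SE 0.14, adjusted p = 0.0373). The third, ncaph, had 728, 835 and 747 in Mutant, against 381 and 619 in WT, and was the gene of this group that did not pass (log2 fold change 0.66, adjusted p = 0.0601).

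Condensin II, which is nuclear through the cell cycle, passed in all 3 of its own subunits with a median of 0.74. Ncaph2 (ENSDARG00000033757) had 528, 667 and 490 in Mutant, against 230 and 329 in WT, with means of 562 ± 93.3 (SD, n = 3) for Mutant and 280 ± 70.3 (SD, n = 2) for WT (log2 fold change 1.01, SE 0.18, adjusted p = 0.0212). Mutant replicate 2 stood above the other Mutant libraries for this gene. Ncapg2 had 652, 730 and 674 in Mutant, against 343 and 488 in WT (log2 fold change 0.74, adjusted p = 0.0286), and ncapd3 had 1055, 1184 and 1204 in Mutant, against 633 and 875 in WT (log2 fold change 0.62, adjusted p = 0.0370). Whether the condensins differed was not tested.

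The symbol rule also took in cenpj and cenpv, of which neither passed. Cenpj encodes a centriole protein rather than a kinetochore subunit, and had 129, 164 and 140 in Mutant, against 84.4 and 111 in WT (log2 fold change 0.56, adjusted p = 0.0950). Cenpv (ENSDARG00000092285) had 51.5, 51.7 and 48.5 in Mutant, against 54.2 and 42.3 in WT, the lowest mean scaled count of the members. Its groups overlapped and it was the 1 member whose highest library was labelled WT (log2 fold change 0.07, SE 0.22, adjusted p = 0.853). Its sign turned to -0.01 with libraries scaled to equal totals, -0.02 with voom and -0.10 without WT column 3.

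Other genes of mitosis were chosen by function from a list of 78 symbols that gave 75 rows. Some symbols had no row, and ube2c had more than 1. These genes followed the same direction less uniformly. The log2 fold change was positive for 66 of the 75, with a median of 0.58, and 31 passed as higher and 1 as lower. Over all tested genes, 3.32% passed as higher and 2.68% as lower. Securin pttg1, the inhibitor of separase, had 142, 180 and 148 in Mutant, against 57.7 and 84.7 in WT (log2 fold change 1.15, adjusted p = 0.0215). Kinetochore genes outside the symbol rule passed in 7 of 12, among them nsl1 of the MIS12 complex (log2 fold change 1.05, adjusted p = 0.0289), zwilch of the complex that recruits dynein (log2 fold change 0.99, adjusted p = 0.0498) and casc5, the scaffold KNL1 (log2 fold change 0.71, adjusted p = 0.0361). Mis18a, a factor that helps load CENP-A onto centromeres, also passed (log2 fold change 0.96, adjusted p = 0.0234). The passenger subunit cdca8, or borealin, was higher (log2 fold change 0.94, adjusted p = 0.0324), as was haspin, listed as GSG2, the kinase whose histone mark recruits that complex (log2 fold change 0.90, adjusted p = 0.0278). The proliferation marker mki67 had 5950, 6667 and 5573 in Mutant, against 2762 and 4231 in WT (log2 fold change 0.82, adjusted p = 0.0273). Spindle genes passed in 7 of 9, including tacc3, aspm and numa1.

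Few genes of cohesin and the anaphase-promoting complex passed, and whether they differed from the other mitosis genes was not tested. Of 8 cohesin genes, esco2 passed as higher (log2 fold change 0.62, adjusted p = 0.0394) and stag1a as lower, and their median was 0.06. Stag1a, a subunit of the cohesin complex, had 770, 665 and 728 in Mutant, against 1046 and 926 in WT (log2 fold change -0.45, adjusted p = 0.0472). Next in rank, nipbla, the cohesin loader, had a log2 fold change of -0.21 (adjusted p = 0.175), and pkmyt1, an inhibitory kinase of Cdk1, -0.17 (adjusted p = 0.484). Of 11 genes of the anaphase-promoting complex and its partners, 1 passed and the median was 0.17. The gene that passed was 1 of 2 rows named ube2c, with 537, 623 and 473 in Mutant, against 232 and 356 in WT (log2 fold change 0.91, adjusted p = 0.0286). The other ube2c row had 304, 292 and 268 in Mutant, against 310 and 326 in WT. In the fits that left out WT column 2, Mutant replicate 1, Mutant replicate 2 or Mutant replicate 3, the call of stag1a was lost. The count of other mitosis genes higher was 0 without Mutant replicate 2, where 0.24% of all tested genes were called higher. It was 3 without Mutant replicate 1, where 1.18% were.

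Genes of DNA replication are expressed in cells that copy their genome ahead of mitosis. WT column 2 was the lowest library for 23 of their 24 rows, as it was for 55 of the 56 mitotic genes. Of 24 rows found, 23 had a positive log2 fold change, and the median of the 24 was 0.49. The test was passed as higher by 3 rows, where 3.32% of all tested genes did so. Those were a row of rrm2, the ribonucleotide reductase subunit (log2 fold change 0.77, adjusted p = 0.0158), cdc45 of the replicative helicase (log2 fold change 0.68, adjusted p = 0.0493) and the flap nuclease fen1 (log2 fold change 0.65, adjusted p = 0.0432). The largest values, for the second rrm2 row and for gins2, were 1.30 and 1.05 and did not pass (adjusted p = 0.0590 and 0.0652). Compared with WT column 3 the mean of the Mutant libraries was higher by a median of only 0.18 on the log2 scale, against 0.44 for the 56 mitotic genes, while WT column 3 exceeded WT column 2 by 0.67. Without WT column 2, 16 of the 24 replication genes had a positive log2 fold change. Without WT column 3 their median was 0.80. For 13 of the 24 rows every Mutant library lay above both WT libraries (54.2%), against 22.3% of all tested genes. WT column 3 was the highest library for 5 rows. The helicase subunit mcm5 was among these 5, with 984, 920 and 1015 in Mutant, against 538 and 1165 in WT. It lay below WT column 3 in all Mutant libraries. Mcm7 had 1266, 780 and 1083 in Mutant, against 1300 and 1367 in WT (log2 fold change -0.38, adjusted p = 0.193), the only negative value of the list. The difference between the replication and mitotic genes was not tested.

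**Figure D4:**
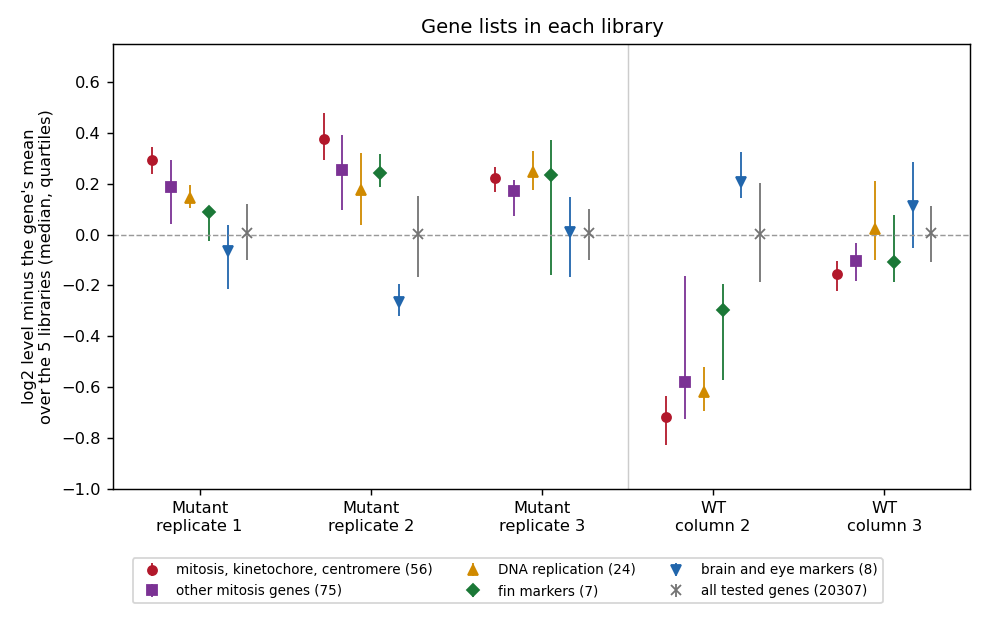
Log2 level in each library minus the gene's mean over the 5 libraries, as the median (symbol) and quartiles (line) over the genes of each list. The 56 mitotic genes have medians of 0.29, 0.38 and 0.22 in Mutant replicates 1, 2 and 3, against -0.72 and -0.15 in WT columns 2 and 3. DNA replication genes have medians of -0.62 and 0.02 in WT columns 2 and 3.

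Genes of cell cycle exit did not move as a group. Of 12 found, ccng1, a p53-responsive cyclin, passed as higher (27711, 32149 and 27097 in Mutant, against 20058 and 22019 in WT, log2 fold change 0.46, adjusted p = 0.0435). Btg2, an antiproliferative gene, passed as lower (2752, 2553 and 2820 in Mutant, against 3946 and 3797 in WT, log2 fold change -0.52, adjusted p = 0.0217). The median of the 12 was -0.09. Over all tested genes, 3.32% passed as higher and 2.68% as lower. The inhibitor cdkn1a, or p21, had 508, 506 and 670 in Mutant, against 657 and 586 in WT, with overlapping groups, and cdkn2c had a log2 fold change of 0.75 (adjusted p = 0.0809). The pocket protein gene rbl2 had a log2 fold change of -0.41 (adjusted p = 0.0501).

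Some tissue markers also differed between the groups. Beside the counts below, 3.32% of all tested genes passed as higher and 2.68% as lower. Of 7 fin markers, 2 passed as higher, and2 and msxc, while hoxa13a and tbx5a had log2 fold changes of -0.26 and -0.13 (adjusted p = 0.446 and 0.774). The summed scaled count of the fin markers, most of it from and1, and2 and col10a1a, was 36777 to 38396 in Mutant, against 19738 to 28179 in WT. Of 8 brain and eye markers, crybb1 of the lens passed as lower and 5 did not overlap between the groups in that direction, where 22.7% of all tested genes did so. The other 3 included gfap and rpe65a, with log2 fold changes of 0.13 and 0.36 (adjusted p = 0.571 and 0.371). The sums of the brain and eye markers, most of them from rho, opn1lw2 and crybb1, were 61392 to 71260 in Mutant, against 87225 to 87256 in WT. Of 6 liver and pancreas markers, tfa passed as higher, with sums of 310646 to 317953 in Mutant, against 210176 to 272367 in WT. Of 6 muscle and blood markers, tnnt3a and the macrophage gene mpeg1.1 passed as higher. The sums of this list, most of them from actc1b, mylpfa and ckma, were 827413 to 956725 in Mutant, against 704111 to 762595 in WT. Of 7 germ line markers, 6 were tested and 0 passed in limma, none of them at an unadjusted p under 0.05 (median log2 fold change 0.23), with sums of 441 to 526 in Mutant, against 410 to 415 in WT. No marker found was at 0 in any library. The part of these tissues in the higher mitotic transcripts was not tested.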

How the data were processed

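Poly(A) RNA of 5 libraries was made into stranded, paired-end libraries. Alignment by the authors used STAR and danRer7, and they counted them per gene with HTSeq 0.5.3 and scaled counts with DESeq. Whether counting used the strand is not given in the sources used here. Each deposited value is a signal, the scaled count of a gene plus 1. This was read from the values, since after subtracting 1 every value was a whole multiple of 1 step per library (within 0.01 of a read), which also gave the read totals.

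Log2(scaled count + 1) was tested with limma 3.58.1 in R 4.3.3 (intensity trend, no covariates, two-sided) where the mean scaled count reached 10, leaving out 1547 genes. Fold changes are on this scale and understate those of low genes. P-values were adjusted by Benjamini-Hochberg over all 20307 genes. A single gene cannot reach an exact permutation p below 0.1 with 3 libraries against 2, so none is given. Nothing says that pools came from separate clutches, and p-values then measure only the spread between these pools.

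Members and lists were chosen with earlier results of these data known. Each member called, the 8 largest changes in each direction and 1 gene for each role were given in full, and for other lists the genes called and the 3 largest changes each way could be named. There was no negative change among the members, and cenpa, named by that rule, is not analysed here. The lists were other mitosis genes, DNA replication, cell cycle exit, germ line, fin, brain and eye, liver and pancreas, and muscle and blood. Alternatives were pseudocounts of 0.5 and 8, no minimum, a minimum mean of 50, equal totals, quantile normalization, robust empirical Bayes, voom on whole reads, and leaving out each library. Only the main limma fit was tested on simulated data, in which genes varied independently of each other.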

Additional observations from a re-analysis of the deposited data

How the results depend on the processing

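Over pseudocounts, filters, equal totals, quantile normalization, robust empirical Bayes and voom, the members called as higher numbered from 31 to 38. The 31 came with equal totals, where 2.37% of all tested genes were called higher. The 38 came with a minimum mean of 50, with 55 members tested, where 3.80% were. All but that last count were made of genes among the 37. Over single libraries left out, the members called ranged from 0 to 51, their median log2 fold change from 0.44 to 1.01 and the log2 ratio of their summed scaled count from 0.45 to 1.03, against 0.71 with all libraries. The other mitosis genes called higher ranged from 0 to 47 and lower from 0 to 1, and their median log2 fold change from 0.29 to 0.80. The lowest medians came without WT column 2 and the highest without WT column 3. The cause was not tested. Over single Mutant libraries left out, the largest counts called higher in both lists came without Mutant replicate 3. Counts of 0 higher came without Mutant replicate 2, where the share of all tested genes called higher fell. It was 0.24% there, against 3.32% with all libraries. Leaving out either WT column leaves 1 library labelled WT, so counts from those fits carry little weight and are left out here. Chosen after seeing the data were a limit of at least 2-fold and an unadjusted p under 0.05 in limma. The first left 4 members and, as higher, 143 of all 20307 tested genes. The second was reached by 53 members and, as higher, by 13.1% of all tested genes. Bub3 turned to -0.21 without WT column 2 and -0.086 without Mutant replicate 1, and cenpv to -0.0086 with equal totals, -0.021 with voom and -0.10 without WT column 3, while without WT column 2 it was 0.25. Equal totals moved the median of all genes to -0.09. They changed the calls over all genes from 674 higher and 544 lower to 481 higher and 1103 lower, and voom gave 485 higher and 1246 lower. With 2 libraries labelled WT that differ by a median of 0.53 over the members, the size of the difference is poorly fixed. The planned edgeR and DESeq2 fits to recovered reads were not run, and voom was the single fit made to those reads. No paired analysis was possible because the WT columns carry the numbers 2 and 3 and the WT titles the numbers 1 and 2, so that the columns could not be tied to single samples.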
